A study of Homo sapiens with 3 samples.

Results

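Mitochondrial fatty acid and lipoate synthesis was followed through the guide RNAs against its enzymes in a pooled CRISPR knockout screen. The genes were taken by symbol: MCAT, OXSM, MECR, CBR4, HSD17B8, LIAS, LIPT1, LIPT2 and AASDHPPT. The library held guides for 8 of these 9 symbols, among 2978 genes listed in all, and LIPT2 was not analysed here. The rule names symbols and sets no threshold on a measured value, but it was written with earlier results of these data known. The 8 genes had 10 guides each, 80 in all, and 73 of them had at least 100 counts in the initial population, the minimum for a guide to enter a gene score. The 7 guides below that minimum were 2 each of MCAT, MECR and LIAS and 1 of HSD17B8.

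The cells were MIA PaCa-2, an established line from a human pancreatic ductal adenocarcinoma, carrying a lentiviral guide library directed at metabolic genes and selected with puromycin. One library came from cells at day 0 (the initial population), one from cells kept for 14 days in the solvent DMSO, and one from cells kept for 14 days in apilimod, a compound that inhibits PIKfyve, a lipid kinase. All 3 groups carried the same guide library. The sample labels give 200 nM for apilimod, but the study's methods describe other concentrations, so the concentration behind this arm is not settled here. In those methods the cells at the lower concentration were collected on day 14, and those at the higher one later. Each group was 1 library, with no biological replicate, so every test below compares guides within these libraries and not cultures.

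Mitochondria build fatty acids with separate enzymes that work on a small acyl carrier protein, unlike the cytosol, where a single large protein carries out the whole cycle. The octanoyl product of the mitochondrial route is the source of lipoate, a cofactor held on a swinging arm of the pyruvate, 2-oxoglutarate and branched-chain ketoacid dehydrogenases and of the glycine cleavage system. Longer acyl chains on the carrier protein are also bound by small assembly factors of the respiratory chain and of the iron-sulfur cluster machinery.

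The libraries held between 24695476 and 26276517 counts, with a median of 651 to 663 counts per guide. The 487 intergenic control guides in use had a median log2 change against the initial population of 0.14 ± 0.40 (SD) in DMSO and 0.22 ± 0.73 in apilimod. Their central 95% ran from −0.78 to 0.85 in DMSO and from −0.85 to 2.41 in apilimod. Controls with few initial counts were higher in apilimod. The 20 control guides with fewer than 200 initial counts had a median of 1.91 in apilimod, against 0.21 for the other 467. Gene-targeting guides in the same low range had a median of 0.20 (n = 2209), and 3 of the 73 guides described here lay in it, 1 each of CBR4, LIAS and AASDHPPT. Leaving out the control guides with fewer than 200 initial counts, a choice made after seeing the data, did not change which of the genes described here passed the tests below. Why these control guides were higher was not tested. Results are also given against all other gene-targeting guides.

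In DMSO, guides against 7 of the 8 genes fell relative to control guides over 14 days, a call that 18.9% of all genes tested had, and CBR4 was the exception. The condensing enzyme OXSM, the malonyl transferase MCAT, the lipoyl synthase LIAS and the carrier-activating enzyme AASDHPPT were the lowest, with 32.0% to 40.4% of their starting share left as the geometric mean over guides. In apilimod, 6 of the 8 fell, as 29% of all genes did, from MCAT with 25% left to AASDHPPT with 46.9%, while HSD17B8 and CBR4 did not pass the test. None of the 8 passed the test of apilimod against DMSO. The gene score behind these statements is the mean log2 change of the share of counts over the guides of a gene, after adding 1 count, and the test is a two-sided exact rank-sum test of those guides against the 487 control guides, adjusted by Benjamini-Hochberg over all 2969 genes tested.

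**Figure D1:**
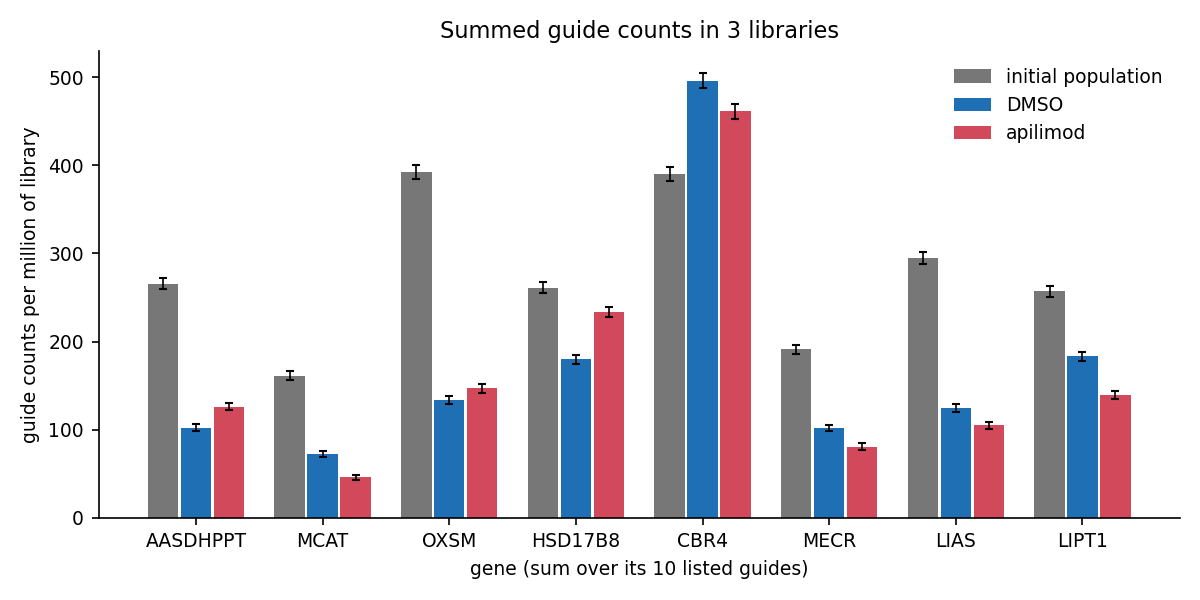
Counts summed over the 10 listed guides of each gene, in CPM, counts scaled to a library total of 1000000 (vertical axis), in the initial population, DMSO and apilimod libraries, with 95% exact binomial intervals as error bars. Guides against 7 genes were lower in both day 14 libraries than in the initial population, and those against CBR4 went from 390 to 496 CPM in DMSO and 461 in apilimod.

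AASDHPPT attaches the phosphopantetheine arm that an acyl carrier protein needs in order to hold a growing chain, and it serves the cytosolic fatty acid synthase as well. The gene lies on chromosome 11 from 106075501 to 106098699 on the plus strand of hg38. Its 10 guides summed to 6557 counts at the start, to 2682 after DMSO and to 3231 after apilimod, or 266, 102 and 126 CPM, that is, per library total of 1000000. The 95% exact binomial intervals were 98.2 to 106 CPM in DMSO and 122 to 131 in apilimod. All such intervals cover counting error only, since the protocol describes no molecular identifiers on the amplified reads, and the guides within the gene were much more scattered than that. In DMSO the log2 changes ran from −3.12 to 0.63 with a median of −1.19, and in apilimod from −2.67 to 0.55 with a median of −0.75. The score was −1.31 ± 1.16 (SD, 10 guides) in DMSO and −1.09 ± 1.03 in apilimod, with adjusted p from the exact rank-sum test of 2.89e-05 and 4.15e-05. The SD in DMSO was the widest among the 8 genes. The strongest guide, sgAASDHPPT_3, went from 1009 counts to 123 in DMSO and 317 in apilimod. The guide that went the other way in DMSO, sgAASDHPPT_5, started from 108 counts and held 179 in DMSO and 76 in apilimod, so it rested on few counts.

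MCAT loads malonyl groups onto the mitochondrial carrier protein, and OXSM is the ketoacyl synthase that joins them to the growing chain. MCAT lies on chromosome 22 from 43132209 to 43143398 on the minus strand, and OXSM on chromosome 3 from 25782917 to 25794534 on the plus strand. MCAT guides summed to 3987 counts at the start, 1901 in DMSO and 1174 in apilimod, or 161, 72.3 and 45.9 CPM. OXSM guides summed to 9697, 3521 and 3757 counts, or 393, 134 and 147 CPM. MCAT was thus lowest in the apilimod library, and OXSM was lowest in the DMSO library, by a smaller margin.

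All 10 of the OXSM guides lay below the 2.5 percentile of the control guides in DMSO, with log2 changes from −2.57 to −1.01 and a median of −1.63. The OXSM score in DMSO was −1.64 ± 0.53 (SD, 10 guides), rank 77 from the lowest of 2969 genes, with an adjusted p of 4.98e-16 by the exact rank-sum test. In apilimod 7 of its 10 guides lay below that percentile, and the score was −1.44 ± 0.72 (adjusted p = 3.12e-10, exact rank-sum test). MCAT scored −1.39 ± 0.74 (SD, 8 guides) in DMSO and −2.0 ± 1.47 in apilimod, ranks 110 and 58, with adjusted p of 6.54e-09 and 7.74e-07 by the same exact test. In the apilimod arm MCAT had the lowest score of the 8 genes, and its guides had the largest SD there, with log2 changes from −4.48 to −0.02. The most lowered guide, sgMCAT_5, went from 600 counts to 122 in DMSO and 27 in apilimod, whereas sgMCAT_1 held 226, 200 and 231 counts in the 3 libraries. Guide sgMCAT_3 was lower in DMSO than in apilimod, with 219 counts at the start, 52 in DMSO and 113 in apilimod.

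HSD17B8 and CBR4 encode the subunits of the mitochondrial ketoacyl reductase, which carries out the first reduction of each cycle. HSD17B8 lies on chromosome 6 from 33204655 to 33206831 on the plus strand, and CBR4 on chromosome 4 from 168863770 to 169010275 on the minus strand. HSD17B8 guides summed to 6450, 4728 and 5980 counts in the initial, DMSO and apilimod libraries, or 261, 180 and 234 CPM. CBR4 guides summed to 9628, 13037 and 11805 counts, or 390, 496 and 461 CPM, of which a single guide, sgCBR4_6, gave 4565, 5949 and 5003. HSD17B8 was thus lower than at the start in both day 14 libraries, and CBR4 was higher in both.

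CBR4 scored 0.40 ± 0.48 (SD, 10 guides) in DMSO and 0.30 ± 0.51 in apilimod, with adjusted p of 0.383 and 0.727 by the exact rank-sum test. None of its 10 guides lay below the 2.5 percentile of the control guides in either arm, and 4 of 10 lay below the control median in each. HSD17B8 scored −0.60 ± 0.96 (SD, 9 guides) in DMSO, with an adjusted p of 0.0135, and −0.11 ± 0.72 in apilimod, with an adjusted p of 0.456 by the same exact test. Its DMSO call was lost against all other gene-targeting guides (adjusted p = 0.217, exact rank-sum test). The guides of HSD17B8 did not move as one. Guides sgHSD17B8_7 and sgHSD17B8_10 were lowered in both arms, from 1462 counts to 557 in DMSO and 539 in apilimod, and from 1022 to 585 and 503. Guides sgHSD17B8_5 and sgHSD17B8_8 were lowered in DMSO alone, from 284 counts to 103 with 328 in apilimod, and from 224 to 70 with 243 in apilimod. Guide sgHSD17B8_9 went from 237 counts to 601 in DMSO and 361 in apilimod. Without that guide, the farthest from the median in DMSO, the DMSO score was −0.83.

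MECR is the enoyl reductase that completes each round of chain growth. It lies on chromosome 1 from 29192657 to 29230942 on the minus strand. Its guides summed to 4720 counts at the start, 2676 in DMSO and 2069 in apilimod, or 191, 102 and 80.8 CPM. All 8 guides in use lay below the control median in both arms, and the log2 changes ran from −1.70 to −0.24 in DMSO and from −2.88 to −0.63 in apilimod. The score was −0.92 ± 0.52 (SD, 8 guides) in DMSO and −1.28 ± 0.72 in apilimod, with adjusted p of 2.63e-07 and 6.28e-09 by the exact rank-sum test. Guide sgMECR_6, which was below the minimum, had 97 counts at the start, 0 in DMSO and 55 in apilimod. A count of 0 allows up to 3 counts, so in DMSO its share was at least 34.4-fold lower than at the start.

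LIAS inserts the sulfur atoms that turn the bound octanoyl group into lipoate, and LIPT1 transfers lipoate to the dehydrogenase complexes. LIAS lies on chromosome 4 from 39459004 to 39485109 and LIPT1 on chromosome 2 from 99154955 to 99163157, both on the plus strand. LIAS guides summed to 7267 counts at the start, 3273 in DMSO and 2682 in apilimod, or 294, 125 and 105 CPM. LIPT1 guides summed to 6344, 4820 and 3559 counts, or 257, 183 and 139 CPM. Both were lowest in the apilimod library, and LIPT1 was the less lowered of the pair in each arm.

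LIAS scored −1.34 ± 0.60 (SD, 8 guides) in DMSO and −1.69 ± 0.80 in apilimod, with adjusted p of 9.45e-10 and 1.01e-10 by the exact rank-sum test. In apilimod all 8 of its guides lay below the 2.5 percentile of the control guides, from sgLIAS_2, which went from 112 counts to 9, to sgLIAS_6, which went from 873 to 433. The 2 LIAS guides below the minimum went separate ways: sgLIAS_9 held 90, 7 and 6 counts, and sgLIAS_5 held 36, 54 and 43. LIPT1 scored −0.51 ± 0.55 (SD, 10 guides) in DMSO, with an adjusted p of 0.00141, and −1.15 ± 1.38 in apilimod, with an adjusted p of 3.46e-05 by the same exact test. Against all other gene-targeting guides the LIPT1 call was lost in DMSO (adjusted p = 0.145, exact rank-sum test) and held in apilimod (adjusted p = 0.0299). The apilimod score of LIPT1 leaned on 2 guides. Guide sgLIPT1_1 held 450, 301 and 21 counts in the initial, DMSO and apilimod libraries, and sgLIPT1_7 held 293, 213 and 49. The remaining LIPT1 guides had apilimod log2 changes from −1.08 to 0.16, and without sgLIPT1_1 the score was −0.79 (adjusted p = 0.000223, exact rank-sum test). 

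**Figure D2:**
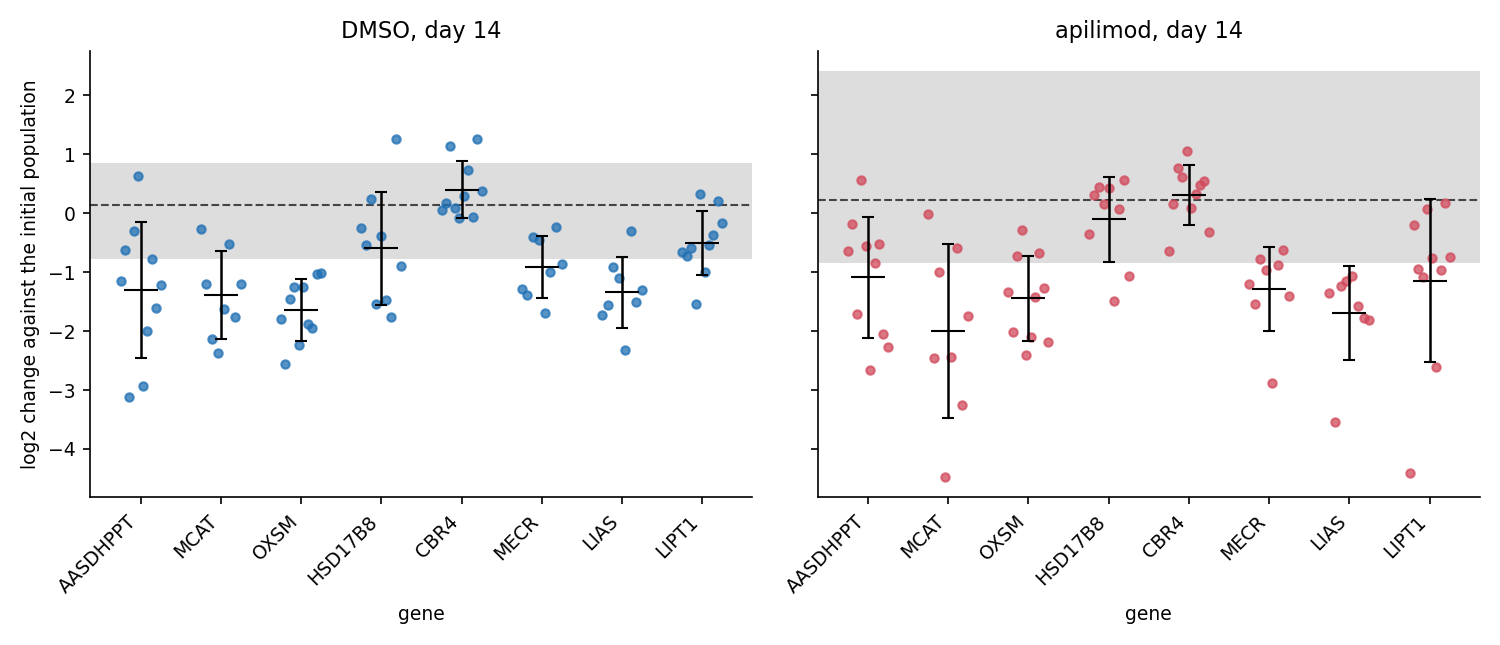
Log2 change of each used guide against the initial population (vertical axis) by gene, in DMSO (left) and apilimod (right). Points are guides, bars are the mean and SD over guides, the dashed line is the control guide median and the grey band spans the central 95% of the control guides. All 10 OXSM guides lie under the band in DMSO and all 8 LIAS guides under it in apilimod, while no CBR4 guide lies under it in either arm.

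Set in order by score in DMSO, from the lowest, the genes ran OXSM, MCAT, LIAS, AASDHPPT, MECR, HSD17B8, LIPT1 and CBR4. Neighbours in this order differed by less than the larger of their guide SDs, except LIPT1 and CBR4. In apilimod the order was MCAT, LIAS, OXSM, MECR, LIPT1, AASDHPPT, HSD17B8 and CBR4, and no neighbours differed by more than the larger of their SDs. OXSM, MCAT and LIAS were the 3 lowest in both arms, and the reductase subunits HSD17B8 and CBR4 were the highest in apilimod.

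In DMSO, 7 of 8 genes were called lower, against 18.9% of all 2969 genes. In apilimod, 6 of 8 were called lower, against 29% of all genes. With all other gene-targeting guides in place of the control guides, 5 of 8 were called in DMSO, against 7.48% of all genes, and 6 of 8 in apilimod, against 7.58%. The 5 were MCAT, OXSM, MECR, LIAS and AASDHPPT, which were also called in apilimod, joined there by LIPT1. The median score over the 8 genes was −1.11 in DMSO and −1.22 in apilimod, beside −0.03 and −0.04 over all genes.

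At the level of guides, 35 of the 73 (47.9%) had a log2 change under −1 in DMSO and 34 (46.6%) in apilimod, beside 9.98% and 11.9% of all 28042 gene-targeting guides used. Under the 2.5 percentile of the control guides lay 40 of the 73 in DMSO and 39 in apilimod, or 54.8% and 53.4%, beside 13.5% and 14.5% of all gene-targeting guides. The 40 in DMSO were all 10 of OXSM, 7 of LIAS, 6 each of MCAT and AASDHPPT, 5 of MECR, 4 of HSD17B8 and 2 of LIPT1. In apilimod LIPT1 gave 5 and HSD17B8 gave 2. Guides of 1 gene share a target, so these counts describe 8 genes and not 73 independent perturbations.

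The question of whether apilimod changed the need for this pathway was put to the ratio of the apilimod to the DMSO library, guide by guide. For the test, the log2 change of each guide was first scaled within its arm, which set the median of the control guides to 0 and that of a list of nucleotide synthesis genes to −1, and the differences were expressed as a z score over all genes. No gene of the 8 was called lower, against 0.539% of all genes, or higher, against 0.202%. An unadjusted p under 0.05 in the exact rank-sum test was reached by 0 of 8, and by 310 of all 2969 genes. A count of 0 among 8 genes lies near that share. Against all other gene-targeting guides no gene of the 8 was called either, beside 0.236% of all genes called lower. Over all genes the split was 16 lower and 6 higher, and without the scaling it was 36 lower and 1 higher. A test that misses its threshold does not show that the 2 arms were alike.

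The log2 ratios of apilimod to DMSO fell on both sides of 0. MCAT, at −0.61 ± 1.04 (SD, 8 guides), and LIPT1, at −0.64 ± 1.31 (10 guides), had the lowest means, with z scores of −1.14 and −1.84 and adjusted p of 0.567 and 0.679 by the exact rank-sum test. HSD17B8, at 0.49 ± 0.87 (9 guides), OXSM, at 0.20 ± 0.79, and AASDHPPT, at 0.22 ± 0.87, had z scores of 1.97, 1.74 and 1.56, with adjusted p of 0.511, 0.497 and 0.567 by the same exact test. MECR, LIAS and CBR4 lay at −0.37 ± 0.41, −0.35 ± 0.99 and −0.09 ± 0.63, with z scores of −0.64, −0.30 and −0.63. Each of the 8 means was smaller than the SD over its guides. The sign of the z score changed for MECR, LIAS and CBR4 under other settings.

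Single guides carried the extremes of the ratio. The lowest guide ratio was −3.74, for sgLIPT1_1, followed by −2.10 for sgMCAT_5 and −2.06 for sgLIPT1_7. The highest were 1.82 and 1.70, for sgHSD17B8_8 and sgHSD17B8_5. One alternative left out the guide whose log2 changes, added over DMSO and apilimod, lay farthest from the gene's median. The z score of LIPT1 was then −0.71 and that of MCAT −0.52. That of HSD17B8 was 2.84 (adjusted p = 0.287, exact rank-sum test). For HSD17B8 the guide left out was sgHSD17B8_9, with a ratio of −0.70, and sgHSD17B8_8 and sgHSD17B8_5 stayed in. Of the 73 guides, 43 had a ratio below 0 and 30 above it. Of all 28042 gene-targeting guides used, 14944 had a ratio below 0 and 13098 above it. The control guides had a median ratio of 0.01, with a central 95% from −0.73 to 2.59.

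**Figure D3:**
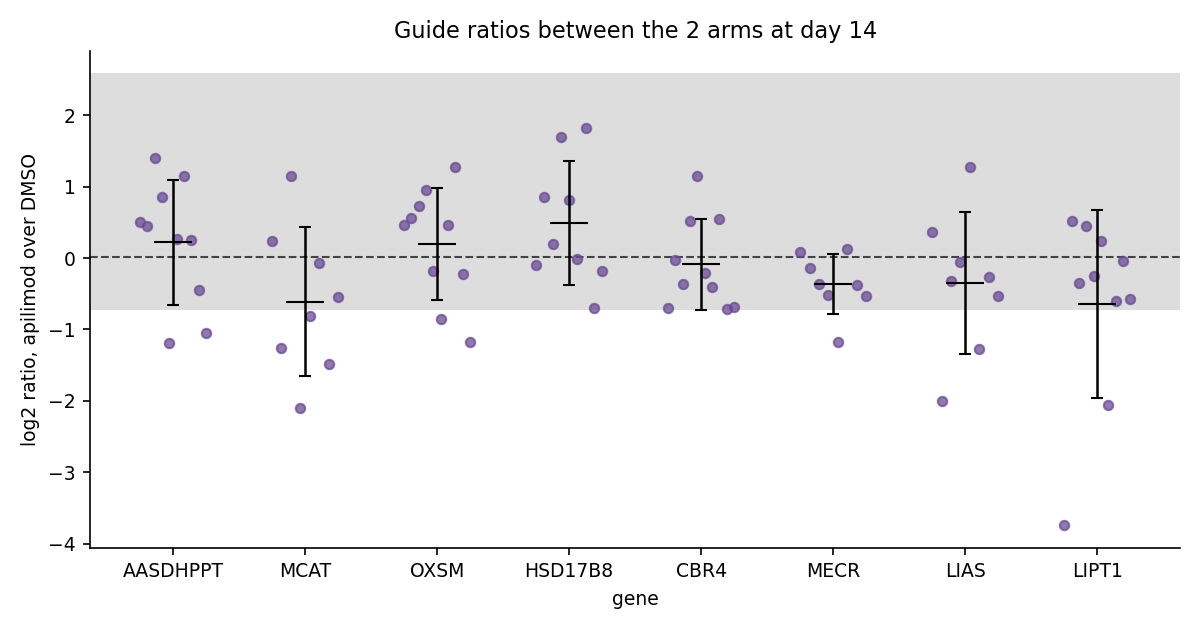
Log2 ratio of apilimod to DMSO for each used guide (vertical axis) by gene. Points are guides, bars are the mean and SD over guides, the dashed line is the control guide median of 0.01 and the grey band spans the central 95% of the control guides, from −0.73 to 2.59. Means fall on both sides of 0 and the lowest single guide is sgLIPT1_1 at −3.74.

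The carrier protein on which these enzymes work, NDUFAB1, had a score near that of OXSM and MCAT. It stood at −1.52 in DMSO (adjusted p = 5.67e-11, exact rank-sum test) and −1.87 in apilimod (adjusted p = 4.93e-12), but it is also a subunit of respiratory complex I. ACSF3, which makes malonyl-CoA inside mitochondria, scored −0.27 and −0.51, and MLYCD, which breaks malonyl-CoA down, scored −0.31 in each arm. All 3 were called lower in both arms, but ACSF3 and MLYCD were not called against all other gene-targeting guides. Respiratory complex I was represented by the 40 genes with symbols starting with NDUF, leaving out NDUFAB1. Of these, 25 were called lower in DMSO and 30 in apilimod, beside 18.9% and 29% of all genes. Their median scores were −0.58 and −0.67. Against all other gene-targeting guides 13 and 16 of the 40 were called, beside 7.48% and 7.58% of all genes. The median of the 8 genes described here was lower than that of these 40 genes in both arms, a difference that was not tested.

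Of 13 genes for the proteins that carry lipoate and the other subunits of their complexes, 7 were called lower in DMSO and 8 in apilimod, beside 18.9% and 29% of all genes, with median scores of −0.28 and −0.54. Against all other gene-targeting guides 3 were called in DMSO and 4 in apilimod, beside 7.48% and 7.58% of all genes. PDHB and GCSH then lost both calls, PDHA1 and DLAT the one in DMSO, and DLST and GLDC the one in apilimod. OGDH, the first subunit of the 2-oxoglutarate dehydrogenase, was the lowest, at −2.12 in DMSO and −2.43 in apilimod, and DLST, the lipoylated subunit of the same complex, stood at −0.82 and −0.62. DLD, the dehydrogenase subunit shared by all the lipoate complexes, stood at −1.04 and −1.12. The pyruvate dehydrogenase subunits PDHA1 and PDHB were called in both arms, at −0.61 and −0.97 and at −0.48 and −0.83. GCSH, the lipoylated protein of glycine cleavage and a substrate of lipoate assembly, stood at −0.50 and −0.54, and GLDC, the decarboxylase of that system, was called in apilimod only, at 0.25 and −0.17. The branched-chain subunits DBT, BCKDHA and BCKDHB were called in neither arm, nor were PDHX of pyruvate dehydrogenase and AMT of glycine cleavage. LIAS was thus lower than the lipoylated proteins GCSH, DLAT and DLST in both arms, a difference of scores that was not tested.

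Of these 13 genes, 1 was called lower between the arms, beside 0.539% of all genes. DLAT, the lipoylated subunit of pyruvate dehydrogenase, scored −0.16 in DMSO and −0.91 in apilimod, with a log2 ratio of −0.75 ± 0.50 (SD) and an adjusted p of 0.0168 by the exact rank-sum test. The call was lost against all other gene-targeting guides (adjusted p = 0.103, exact rank-sum test). LIAS and LIPT1, which supply DLAT with lipoate, had ratios of −0.35 and −0.64 and were not called.

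LIAS needs iron-sulfur clusters and S-adenosylmethionine, and 8 genes of that supply are described. Of these, 7 were called lower in DMSO and 8 in apilimod, beside 18.9% and 29% of all genes. Their median scores were −1.93 and −1.63, and none was called between the arms. Against all other gene-targeting guides 6 and 7 of the 8 were called, beside 7.48% and 7.58% of all genes. The S-adenosylmethionine carrier SLC25A26 then lost its call in DMSO (adjusted p = 0.0588, exact rank-sum test). ISCA1 lost the one in apilimod (adjusted p = 0.347, exact rank-sum test). FDXR, the ferredoxin reductase, was the lowest at −2.81 and −3.00. The ferredoxins FDX1 and FDX1L stood at −1.96 and −1.21 and at −2.32 and −1.86, and NFS1, the cysteine desulfurase, at −1.96 and −1.66. The cluster carriers ISCA2 and GLRX5 stood at −1.90 and −2.59 and at −1.23 and −1.60. ISCA1, at −1.06 and −0.84, was the gene called in apilimod only. These genes serve many other iron-sulfur proteins, and LIAS itself was higher than their median in DMSO and slightly lower in apilimod.

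Of 6 genes of cytosolic fatty acid synthesis, 2 were called lower between the arms, beside 0.539% of all genes and 0 of the 8 mitochondrial genes. The difference between these lists was not tested. Against all other gene-targeting guides the same 2 were called, beside 0.236% of all genes. FASN, the cytosolic synthase that AASDHPPT also activates, scored 0.07 in DMSO and −1.83 in apilimod, with a z score of −6.42 (adjusted p = 4.02e-06, exact rank-sum test). The citrate carrier SLC25A1 went from −0.17 to −1.58 (adjusted p = 0.0128, exact rank-sum test), while ACACA, at −0.27 and −1.64, missed the threshold (adjusted p = 0.0546). ACLY, the ATP citrate lyase, was lowered in DMSO already, at −1.29, with −0.97 in apilimod. ACACB and OLAH were called in no comparison. AASDHPPT, which serves both routes, had its guides lowered in DMSO and a ratio of 0.22 ± 0.87 between the arms. All these comparisons share the initial library.

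**Figure D4:**
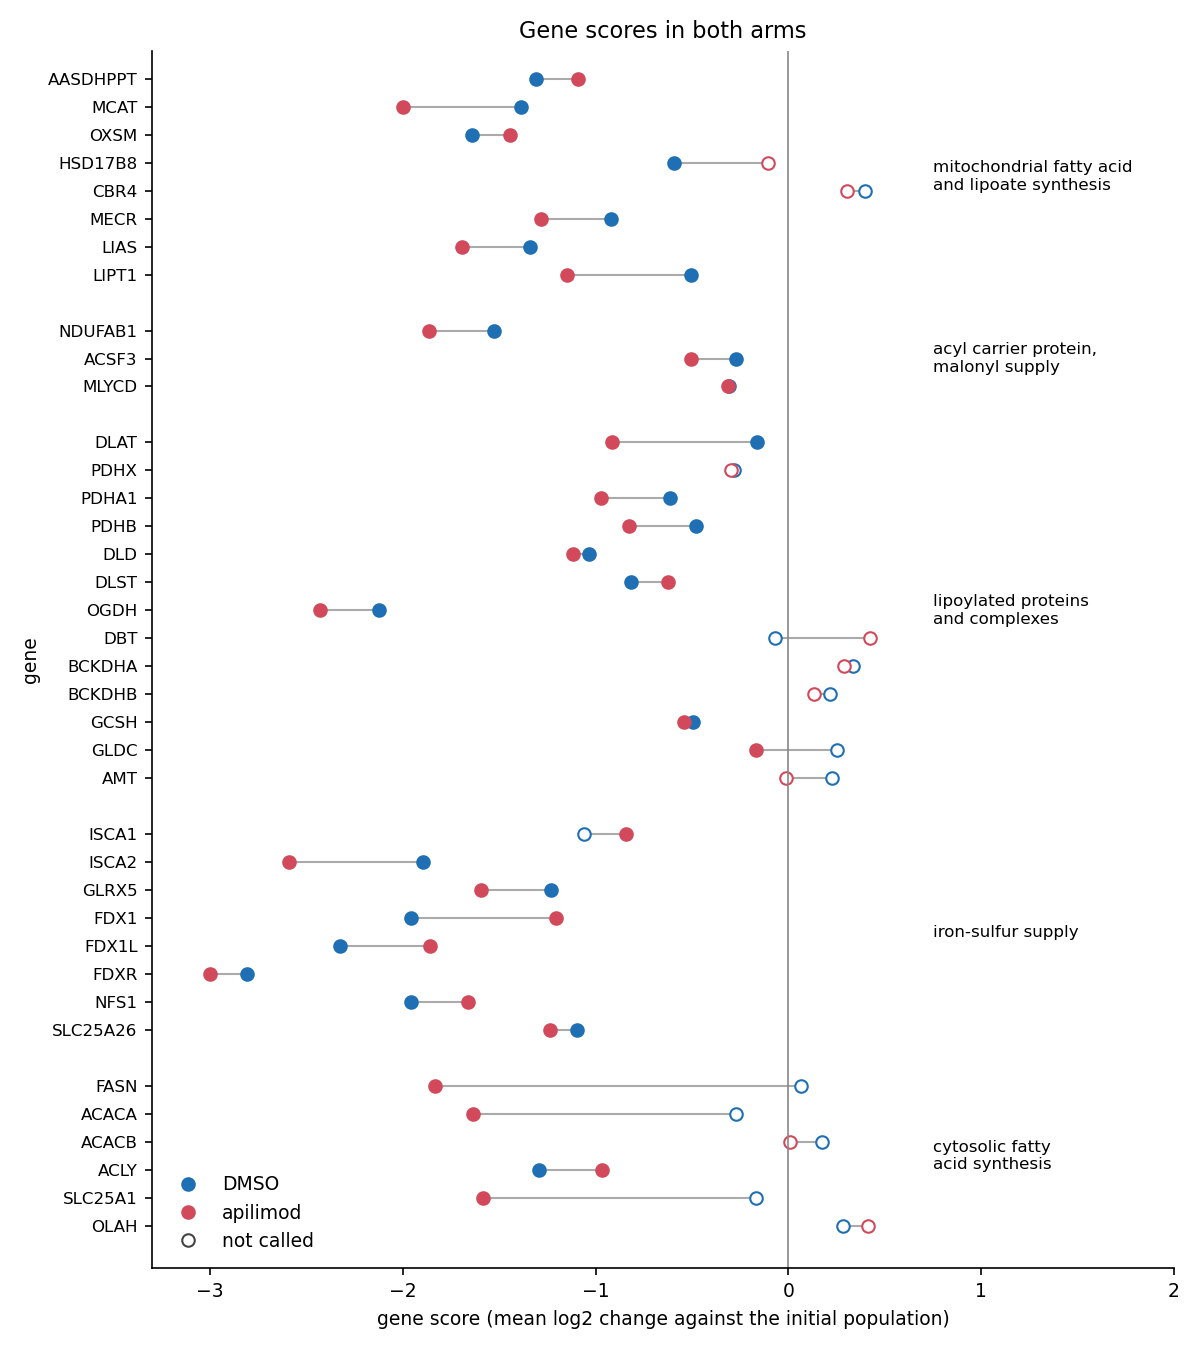
Gene scores (horizontal axis, mean log2 change against the initial population) in DMSO (blue) and apilimod (red) for the 8 genes and 4 lists of related genes, with open circles for scores not called and a line joining both scores of a gene. The mitochondrial genes other than HSD17B8 and CBR4 are filled in both arms, whereas FASN, ACACA and SLC25A1 are filled in apilimod only.

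The genes nearest to the median of the 8, measured as the distance between the pair of scores and the pair of medians (−1.11 in DMSO and −1.22 in apilimod), were SLC25A26, JMJD6, ATP5J2, PGS1 and CDS2. Their distances ran from 0.029 to 0.113 log2 units. SLC25A26, the mitochondrial carrier of S-adenosylmethionine, was the nearest, at −1.09 ± 1.09 and −1.24 ± 0.80 (SD, 10 guides). ATP5J2, at −1.10 and −1.15, had guide SDs of 2.63 and 2.67, so its position was poorly fixed. The likeness rests on 2 arms that share the initial library.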

How the data were processed

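Guide counts per library, as deposited by the authors, were used (whole reads per guide). According to the submitters' processing notes, reads were handled with bcl2fastq, cutadapt 4.1, Bowtie2 2.4.5 and MAGeCK 0.5.9.5, with hg38 named as the build. Reads were amplified from genomic DNA and no molecular identifiers are described, so uneven amplification cannot be told from uneven cell numbers. The table of the whole series and the library files held the same counts (0 differences).

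Counts were divided by the library total after adding 1 count, and log2 changes were taken against the initial population. Guides with at least 100 initial counts and genes with at least 6 such guides were kept (2969 of 2978 genes; 1630 of 30197 guides were below the minimum). The gene score, after the study's approach, was the mean over guides. Each gene's guides were ranked with 487 of 499 control guides, and the two-sided p of the rank sum was computed exactly, with Benjamini-Hochberg adjustment and a threshold of 0.05. For apilimod against DMSO, changes were scaled to the control guides (median 0) and to nucleotide synthesis genes (27 of 29 symbols measured, median −1), and differences were centred and divided by their SD over genes. Calculations used Python 3.11.15, numpy 2.4.6, pandas 2.3.3 and scipy 1.17.1, with figures in matplotlib 3.10.9. The test was checked on simulated data for DMSO against the initial population only, with guide scatter drawn from the control guides. Because of that, the check cannot cover a general shift between gene-targeting and control guides. In these data 61.1% of all gene-targeting guides used lay below the control median in DMSO. All members of the rule and all related genes on 4 lists were counted, and related genes were named where called or where a member acts on them. One item is not reported here. The members and lists were chosen with earlier results of these data known. Gene positions are those of GENCODE on hg38. The positions the guides cut and their sequences were not used here. Alternatives covered the minimum count, the pseudocount, the comparison guides, the mean or median, the farthest guide, the normalization and the scaling.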

Additional observations from a re-analysis of the deposited data

How the results depend on the processing

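Over the 8 genes and 3 comparisons, 24 results were recomputed under 8 to 11 alternative settings each, which gave 229 recomputed values. Of these, 227 stayed on the same side of the threshold, and those of called results also kept their direction. The other 2 lost a call (HSD17B8 and LIPT1 in DMSO, against all other gene-targeting guides). Results that were not called could change sign. MCAT had too few guides at a minimum of 300 initial counts. The number of the 8 genes called lower ran from 5 to 7 in DMSO and from 5 to 6 in apilimod, and was 0 between the arms under every alternative run. The lowest adjusted p between the arms was 0.0661, for MCAT (z score −2.64) with no minimum of initial counts, and its adjusted p reached 0.810 under the others. Values not called had z scores from −1.59 to 0.83 for MECR, from −1.21 to 0.53 for LIAS and from −1.25 to 0.09 for CBR4. The HSD17B8 score in apilimod, also not called, ran from −0.29 to 0.16. The use of control guides of at least 200 initial counts was chosen after seeing the data and changed no call of the 8.

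Over all genes, the number called lower against all other gene-targeting guides was 222 in DMSO (560 against control guides), 225 in apilimod (862) and 7 between the arms (16). Between the arms it was 41 with a minimum of 30 initial counts, 28 with 300, 39 with none, 36 without scaling and 6 without the farthest guide. With control guides of at least 200 initial counts, the number called lower was 587 in DMSO, 801 in apilimod and 14 between the arms. The causes were not tested. No paired analysis was possible because each group had 1 library. With no replicate, the spread between cultures is unknown.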
